A study of Mus musculus with 44 samples.

Results

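The unfolded protein response and the integrated stress response were followed through 10 genes in nuclear RNA of mouse livers with non-alcoholic steatohepatitis (NASH). The genes were chosen by name, as Atf4, Atf6, Xbp1, Ddit3, Hspa5, Trib3, Asns, Chac1, Herpud1 and Dnajb9, and all 10 were found among the 20105 identifiers of the count table. INTACT, a method that pulls down tagged nuclei of 1 cell type, was applied to 22 male HEP-INTACT mice, and each mouse gave 2 libraries, one from its hepatocyte nuclei and one from all liver nuclei (whole liver nuclei), 44 in all. On the CDAHFD, a choline-deficient high-fat diet given for 7 weeks, 3 mice had advanced and 4 mice mild NASH, and 4 control mice had received a low-fat diet for as long. On the diet labelled FPC, given for 20 weeks, 3 mice had advanced and 4 mice mild NASH, against 4 low-fat control mice of the same duration. All these mice, controls included, carried the HEP-INTACT tag, and the labels used here do not give the promoter that drives it, the strain or the age. Mild and advanced mice were separated by liver histology, with fibrosis in the advanced group, and were therefore not randomised to those stages. Diet and its duration cannot be told apart between the CDAHFD and FPC studies.

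Unfolded proteins in the endoplasmic reticulum (ER) are sensed by 3 membrane proteins, IRE1, PERK and ATF6. IRE1 splices the Xbp1 messenger so that it encodes an active transcription factor, ATF6 is itself cleaved into one, and PERK phosphorylates the translation factor eIF2alpha. Other kinases that respond to amino acid shortage, haem shortage or viral RNA phosphorylate the same factor, and this shared branch is the integrated stress response. It lowers general protein synthesis and favours translation of ATF4, which acts with CHOP, the product of Ddit3, on genes of amino acid supply and cell fate. In the liver, where hepatocytes secrete large amounts of plasma protein and lipoprotein, both responses are known for their links to fat loading and diet. Counts of nuclear RNA over whole genes, introns included, measure neither Xbp1 splicing nor the phosphorylation, cleavage and translation steps.

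The 10 genes lie on 8 mouse chromosomes of the mm10 build. The integrated stress response genes are Atf4 (chr15:80255184-80257545, plus strand), Ddit3 (chr10:127290793-127296288, plus), Trib3 (chr2:152337425-152344060, minus), Asns (chr6:7675171-7693182, minus) and Chac1 (chr2:119351242-119354327, plus). The genes of the ER arms are Atf6 (chr1:170704457-170867771, minus), Xbp1 (chr11:5520641-5525993, plus), Hspa5 (chr2:34772090-34776529, plus), Herpud1 (chr8:94386500-94395358, plus) and Dnajb9 (chr12:44205897-44210068, minus). Ddit3 shares 68 bases with Mars on the opposite strand, Herpud1 shares 473 bases with the antisense gene Gm15890, and Atf6 contains 2 small nuclear RNA genes of 107 bases. The strand setting of the counting is not given in the sources used here, so reads in those stretches cannot be assigned to 1 gene.

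The promoters of 5 members are shown because they hold an element through which these responses are known to act, and because these 5 genes did not move together. Each sequence runs from 250 bases before to 50 bases after the gene start of the RefSeq promoter table (GRCm38.p6), 5′ to 3′ on the gene's own strand, with the matched element in capitals. The ER stress element, searched as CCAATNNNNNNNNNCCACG, is bound by ATF6 with NF-Y. It was matched in Hspa5 alone, starting at base -65 from the gene start on the gene's strand, and in 39 of 32817 mouse promoters of this length (0.119%). Other forms of this element were not searched, so a promoter without a match may still hold 1. The C/EBP-ATF response element, searched as TGATGNAA and bound by ATF4 with C/EBP partners, was matched in Trib3 at base 15, in Asns at base -23, in Chac1 at base -193 and in Herpud1 at base -112. Bases are counted from that table's starts, which for Asns and Herpud1 lie 27 and 71 bases upstream of the gene starts given above from the count table and for the other 3 genes are the same. The match lies on the gene's strand in Asns and on the other strand in Trib3, Chac1 and Herpud1, and 3.97% of the 32817 promoters hold 1. The core of the unfolded protein response element, TGACGTGG, was matched in none of the 9 members with a promoter entry, against 0.676% of all promoters. Both strands were searched throughout, no 2 matches overlapped, and a match is a description of the letters only. The regions are chr2:34771840-34772139 on the plus strand, chr2:152344011-152344310 on the minus strand, chr6:7693160-7693459 on the minus strand, chr2:119350992-119351291 on the plus strand and chr8:94386179-94386478 on the plus strand.
Hspa5: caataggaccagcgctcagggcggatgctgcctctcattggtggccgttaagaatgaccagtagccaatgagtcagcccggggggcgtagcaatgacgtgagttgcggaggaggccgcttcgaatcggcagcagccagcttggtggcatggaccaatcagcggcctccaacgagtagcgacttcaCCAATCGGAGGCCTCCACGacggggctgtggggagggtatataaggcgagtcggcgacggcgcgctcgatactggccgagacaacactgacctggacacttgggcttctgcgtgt
Trib3: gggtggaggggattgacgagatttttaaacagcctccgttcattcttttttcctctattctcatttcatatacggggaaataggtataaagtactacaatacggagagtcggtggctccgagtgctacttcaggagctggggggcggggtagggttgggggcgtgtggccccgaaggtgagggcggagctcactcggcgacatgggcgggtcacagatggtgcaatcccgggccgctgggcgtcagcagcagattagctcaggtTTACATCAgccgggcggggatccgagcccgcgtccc
Asns: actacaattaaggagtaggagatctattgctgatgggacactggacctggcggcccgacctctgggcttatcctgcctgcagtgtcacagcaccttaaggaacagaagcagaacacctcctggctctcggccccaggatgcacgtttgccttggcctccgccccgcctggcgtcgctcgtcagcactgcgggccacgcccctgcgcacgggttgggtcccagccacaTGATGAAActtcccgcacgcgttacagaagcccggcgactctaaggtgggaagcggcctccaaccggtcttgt
Chac1: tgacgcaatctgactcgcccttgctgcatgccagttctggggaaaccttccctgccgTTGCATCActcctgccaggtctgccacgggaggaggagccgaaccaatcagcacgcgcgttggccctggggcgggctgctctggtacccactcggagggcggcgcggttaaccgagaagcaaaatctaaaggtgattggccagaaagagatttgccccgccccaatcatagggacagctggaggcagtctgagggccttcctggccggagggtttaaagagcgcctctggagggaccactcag
Herpud1: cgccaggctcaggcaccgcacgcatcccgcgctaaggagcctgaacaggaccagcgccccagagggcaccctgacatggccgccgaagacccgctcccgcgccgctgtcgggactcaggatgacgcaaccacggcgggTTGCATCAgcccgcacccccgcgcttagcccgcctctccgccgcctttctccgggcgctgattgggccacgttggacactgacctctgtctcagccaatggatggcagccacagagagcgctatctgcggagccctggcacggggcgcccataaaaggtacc

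The count tables held between 12.1 and 33.1 M counts a library (median 22.8 M). Levels are given as normalised CPM, counts per 1000000 after trimmed-mean (TMM) scaling of the library totals. A gene was called when the adjusted p of edgeR's quasi-likelihood test, over all genes tested, was under 0.05. With totals alone as the scale, the median gene was 0.28 to 0.49 log2 units higher in the 8 comparisons of diseased with control mice, so every change below is relative to the median gene. Hepatocyte marker genes (12 measured) summed to 5391 to 7663 normalised CPM in hepatocyte nuclei of advanced CDAHFD mice, against 11397 to 25571 in their controls, and to 4841 to 8906 in advanced FPC mice, against 12289 to 25007 in FPC controls. Recruited macrophage markers (9 measured) summed to 98.8 to 120 in hepatocyte nuclei of advanced CDAHFD mice, against 8.71 to 12.9 in controls, and to 731 to 817 in whole liver nuclei of the same advanced mice, against 21.7 to 27.2 in controls. In FPC hepatocyte nuclei they summed to 104 to 117 in advanced mice, against 7.17 to 8.80 in controls, where Trem2 was at 0 in all 4. Their part in the results below was not tested. Of the 22 mice, 20 had hepatocyte and whole liver libraries that deviated together from their groups. The libraries labelled as CDAHFD control mice Control_9862 and Control_9867 went against their pairing, with correlations of -0.20 and -0.26 over 14627 genes. Mice are named by the end of their sample titles. Both are controls, so if their labels are crossed the groups stay the same, and among the fits only the replicate block and those that leave out 1 of these mice change. Replicates are separate mice.

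Per kilobase of counted gene, Atf4 was the most abundant of the 10 genes, with a median of 14.97 normalised CPM per kilobase over the 44 libraries. The counted lengths include introns and run from 2362 bases in Atf4 to 163315 in Atf6, so this order depends on them. Without division by length Atf6 was highest, with group means of 238 to 394 normalised CPM, against 24.4 to 54.2 for Atf4. Hspa5, which encodes the ER chaperone BiP, had a median of 10.6, Herpud1, an ER membrane protein of the degradation pathway, 10.2, and Xbp1 10.1 per kilobase. Ddit3 stood at 5.11, Dnajb9, a co-chaperone of BiP, at 2.55, Atf6 at 1.83 and Trib3, a pseudokinase that binds ATF4 and AKT, at 1.23 per kilobase. Chac1, a glutathione-degrading enzyme, and Asns, asparagine synthetase, were lowest at 0.378 and 0.255 per kilobase. Chac1 had 3 to 84 counts and Asns 5 to 391 counts a library, so their lowest values are the least precise. Asns and Trib3 varied most between the 12 groups, with highest and lowest group means 10.8-fold and 10.2-fold apart. Atf6 varied least, at 1.65-fold, and the other 7 genes spanned 2.22-fold to 4.74-fold.

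**Figure D1:**
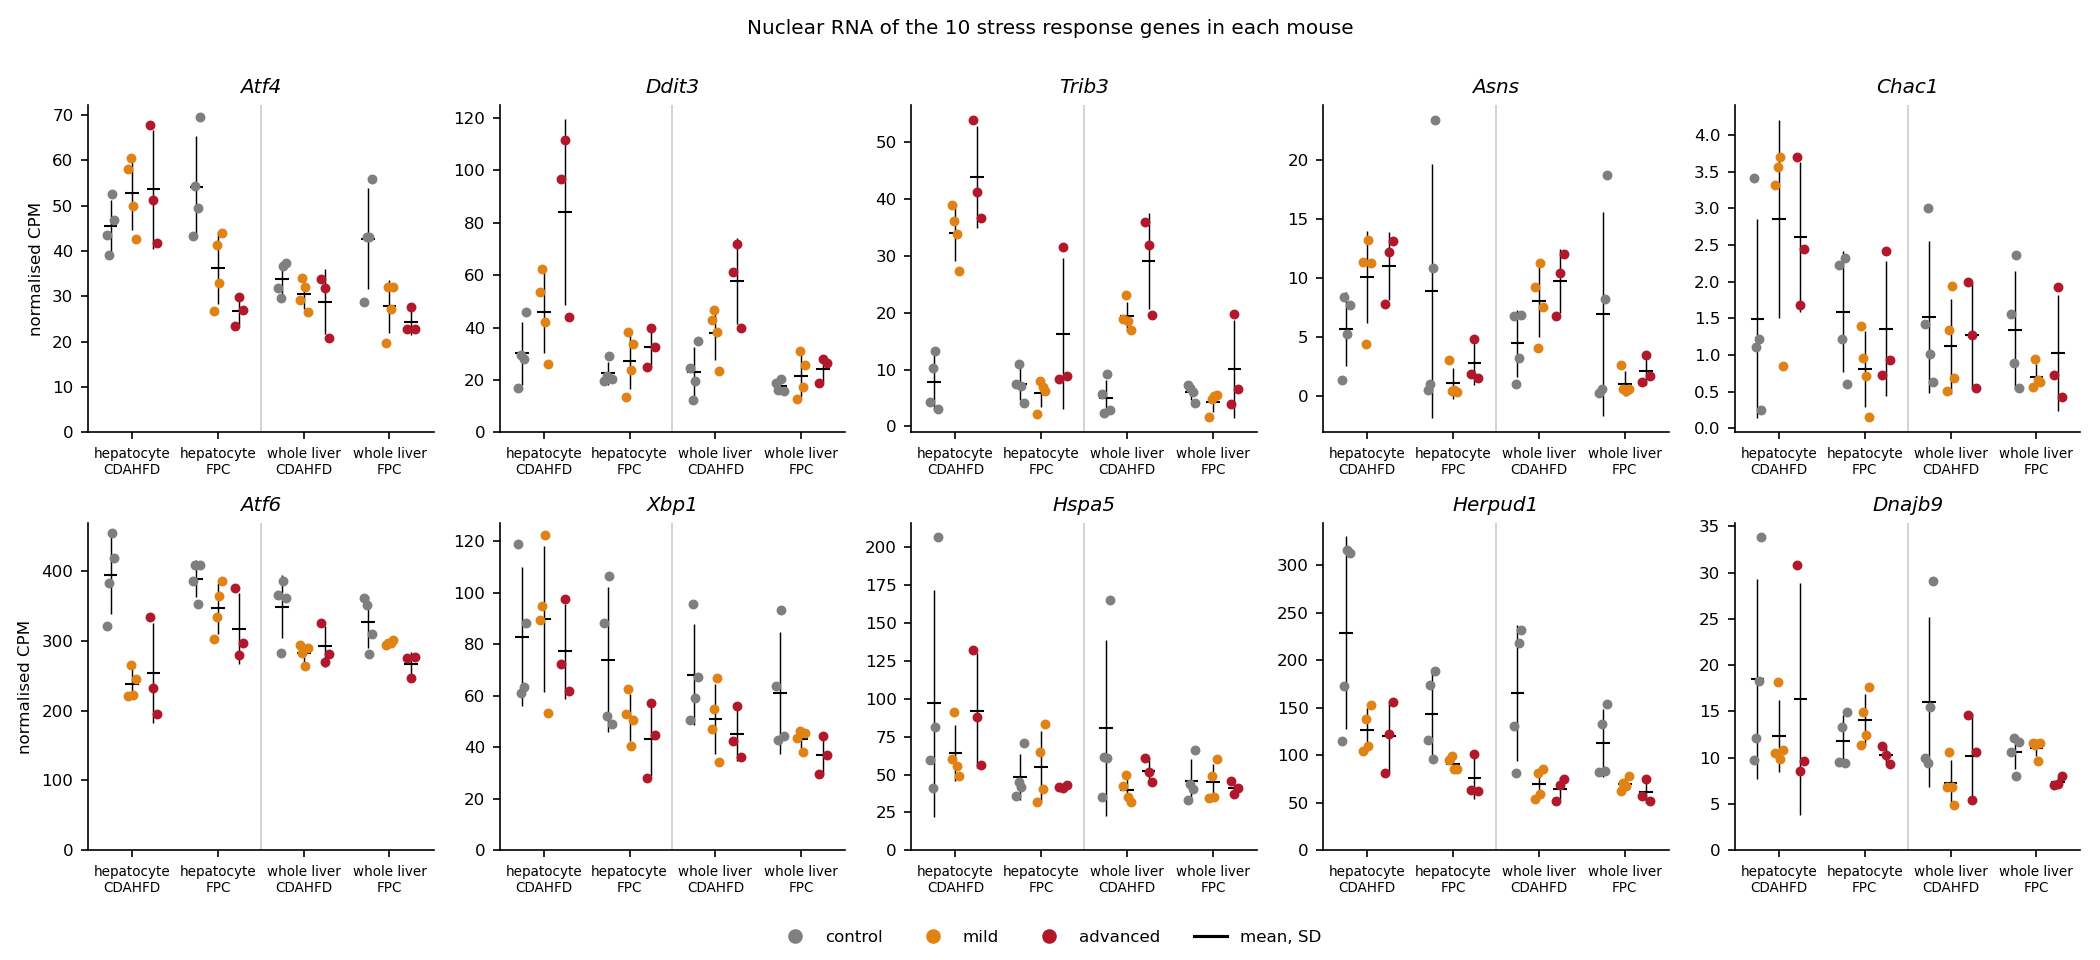
Normalised CPM of each gene in each mouse (points), with group means (horizontal bars) and SD (vertical lines), for hepatocyte and whole liver nuclei of the CDAHFD and FPC studies. Trib3 in hepatocyte nuclei reached 36.6 to 53.8 in advanced CDAHFD mice, above all CDAHFD controls at 3.08 to 13.3.

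In hepatocytes of CDAHFD mice the integrated stress response genes Trib3 and Ddit3 rose with disease, while Atf6 and Herpud1 fell. In advanced against control mice 2 members were called higher and 2 lower of 10, where 59.5% of all genes tested were called, and in mild against control mice 1 was higher and 2 were lower, where 56.3% were called. A share of 4 in 10, or 3 in 10, lies below those backgrounds and is no result about the set. Between advanced and mild CDAHFD mice edgeR and DESeq2 called 0 members, where 2.82% of genes were called, and 1, Ddit3, had an unadjusted p under 0.05.

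Trib3 had 53.8, 41.2 and 36.6 normalised CPM in hepatocyte nuclei of advanced CDAHFD mice, against 4.22, 10.3, 13.3 and 3.08 in control mice. The 4 mild mice had 38.9, 36.2, 33.8 and 27.4. Every mild and every advanced mouse lay above every control mouse. The log2 fold change was 2.53 ± 0.40 (SE) in advanced mice (5.77-fold, adjusted p = 0.000265) and 2.16 ± 0.38 in mild mice (4.47-fold, adjusted p = 0.000667). The advanced call held under all 13 alternatives tried and the mild call under all 14. Fewer cells of a type and less RNA per cell cannot be told apart in bulk nuclei, for this gene and for those that follow.

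Ddit3 had 96.6, 111 and 43.97 normalised CPM in hepatocyte nuclei of advanced CDAHFD mice, against 17.0, 29.6, 28.1 and 46.0 in controls. Mouse Advanced_10104 lay within the control range and the other 2 advanced mice lay well above it. The log2 fold change was 1.49 ± 0.38 (adjusted p = 0.00593), and it ranged from 1.23 to 1.99 over 13 alternatives, with the call kept in each. Mild mice had 53.4, 62.3, 42.0 and 26.3, a log2 fold change of 0.62 ± 0.36 against control that did not pass (adjusted p = 0.162). Total-count scaling called it (0.97, adjusted p = 0.0356), where the median gene was 0.38 higher.

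Atf4 itself averaged 53.6 ± 13.1 normalised CPM in hepatocyte nuclei of advanced CDAHFD mice (SD, n = 3) and 45.5 ± 5.70 in controls (n = 4), a log2 fold change of 0.25 ± 0.18 (adjusted p = 0.237). In mild mice the log2 fold change was 0.22 ± 0.16 (adjusted p = 0.26). Total-count scaling called both, at 0.74 (adjusted p = 0.00291) and 0.57 (adjusted p = 0.0104), against median shifts of 0.49 and 0.38. Asns averaged 11.04 ± 2.89 in advanced mice and 5.65 ± 3.17 in controls, and its log2 fold change of 0.98 ± 0.50 did not pass (adjusted p = 0.113); total-count scaling called it (1.47, adjusted p = 0.0237). Chac1 averaged 2.61 ± 1.02 in advanced mice and 1.498 ± 1.35 in controls, with a log2 fold change of 0.81 ± 0.67 (adjusted p = 0.311). Mouse Control_9862, with 3.42 against 0.244 to 1.22 in the other controls, decided the Chac1 result. Without it Chac1 was called higher in advanced mice (adjusted p = 0.042) and in mild mice (adjusted p = 0.0255).

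Among the ER arms, Atf6 had 333, 233 and 194 normalised CPM in hepatocyte nuclei of advanced CDAHFD mice, against 321, 383, 455 and 418 in controls. Mild mice had 221, 265, 222 and 245, all below every control. The log2 fold change was -0.62 ± 0.18 in advanced mice (adjusted p = 0.0112) and -0.72 ± 0.17 in mild mice (adjusted p = 0.00326). Without mouse Advanced_10104 the advanced call was lost (adjusted p = 0.0519). Herpud1 had 81.8, 122 and 156 in advanced mice, against 115, 173, 316 and 313 in controls, with overlapping ranges and a log2 fold change of -0.92 ± 0.34 (adjusted p = 0.0374). In mild mice it was -0.85 ± 0.31 (adjusted p = 0.0359). The advanced Herpud1 call was lost without Control_10110 or Control_10113 or Advanced_9845 or Advanced_9896 (adjusted p 0.0845 to 0.132) or from the libraries of both groups alone, and the mild call without either of these controls or Mild_9852, Mild_9853 or Mild_9894 (0.0575 to 0.105). Total-count scaling ended all 4 of these Atf6 and Herpud1 calls.

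Hspa5, Xbp1 and Dnajb9 were not called in hepatocyte nuclei of CDAHFD mice. Hspa5 had 132, 88.1 and 56.3 normalised CPM in advanced mice, against 59.6, 40.9, 81.3 and 207 in controls, a log2 fold change of -0.06 ± 0.50 (adjusted p = 0.924). Mouse Control_10113 was the highest for this chaperone and alone lay above all advanced mice. Xbp1 averaged 77.3 ± 18.4 in advanced mice and 83.0 ± 27.0 in controls, and Dnajb9 averaged 16.3 ± 12.6 in advanced mice and 18.5 ± 10.8 in controls. With standard errors of 0.29 and 0.51 on the log2 scale, these tests do not show that the levels were alike.

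**Figure D2:**
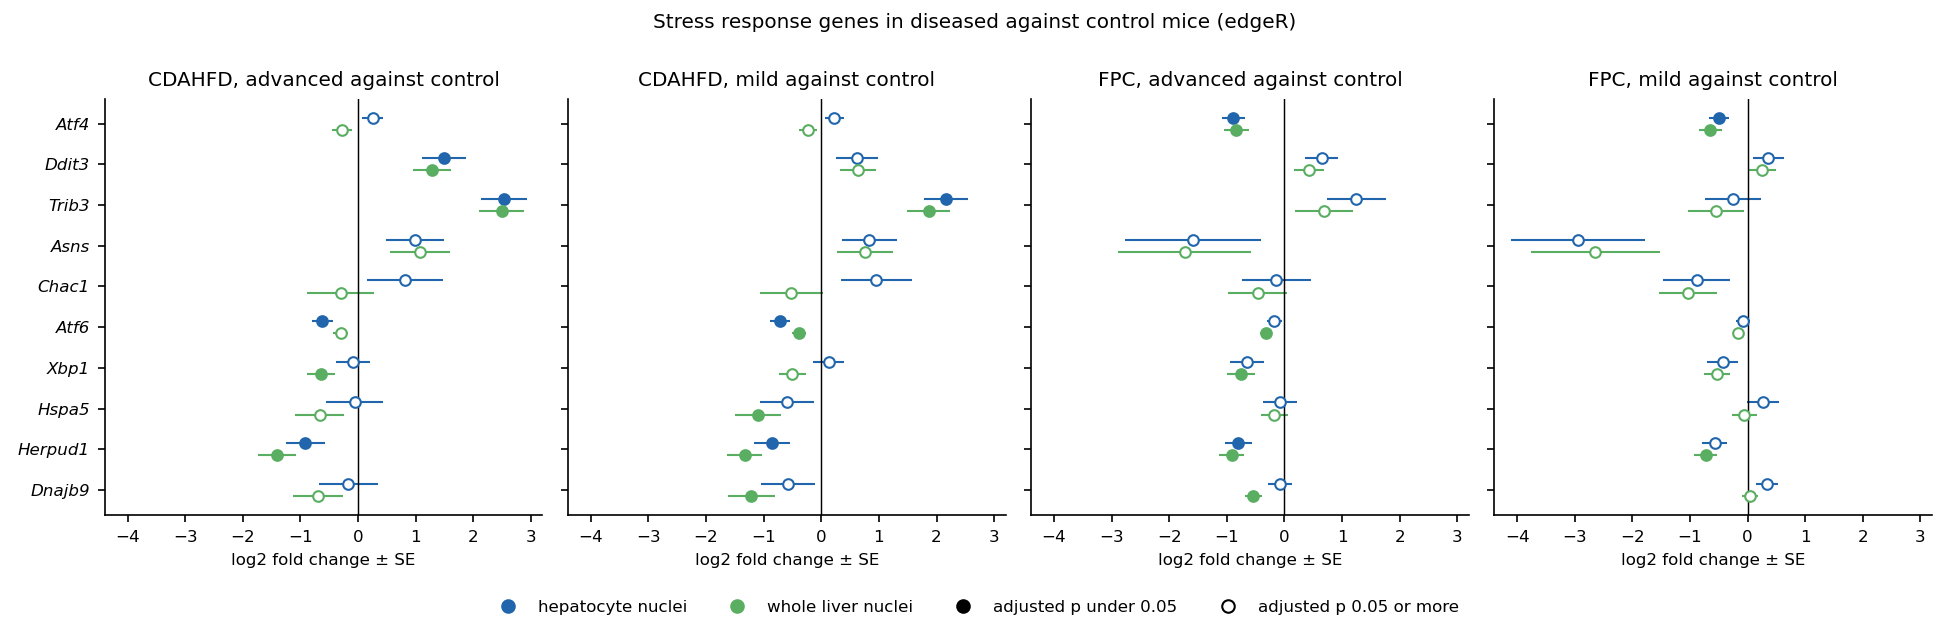
Log2 fold changes (edgeR, bars are SE) of the 10 genes in advanced and mild mice against control mice, for hepatocyte nuclei and whole liver nuclei of each diet, filled where the adjusted p was under 0.05. Trib3 stood at 2.53 and 2.49 in advanced CDAHFD mice in hepatocyte and whole liver nuclei, and Herpud1 was lower than control in all 8 comparisons shown.

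Whole liver nuclei of the CDAHFD mice gave 2 members higher and 2 lower in advanced against control mice, where 55.7% of genes were called, and 1 higher and 4 lower in mild against control mice, where 52.2% were called. Trib3 had 35.8, 31.8 and 19.6 normalised CPM in advanced mice, against 5.79, 2.37, 9.16 and 2.90 in controls, a log2 fold change of 2.49 ± 0.39 (adjusted p = 0.000226). Mild mice had 17.0 to 23.0, which gave 1.87 ± 0.37 on the log2 scale (adjusted p = 0.00141). Neither group overlapped the controls. Ddit3 had 61.2, 71.9 and 39.7 in advanced mice, against 24.7, 12.4, 19.5 and 35.0 in controls, with no overlap and a log2 fold change of 1.28 ± 0.34 (adjusted p = 0.00679). For mild mice its log2 fold change was 0.64 ± 0.32 (adjusted p = 0.109), called without Control_10113 (adjusted p = 0.023), without Mild_10102 (adjusted p = 0.0459) and under total-count scaling (1.02, adjusted p = 0.0173). Both Trib3 calls and the advanced Ddit3 call held under every alternative tried.

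Herpud1 fell in whole liver nuclei of CDAHFD mice, to 51.4, 68.5 and 74.5 normalised CPM in advanced mice, against 131, 81.6, 218 and 232 in controls. The log2 fold change was -1.41 ± 0.33 in advanced mice (adjusted p = 0.00364) and -1.33 ± 0.30 in mild mice (adjusted p = 0.00313). These were the only 2 of 20 falls against control that total-count scaling also called, at -0.94 (adjusted p = 0.0259) and -0.95 (adjusted p = 0.0183). Hspa5 fell in mild mice (-1.10 ± 0.40, adjusted p = 0.0376), and so did Dnajb9 (-1.21 ± 0.41, adjusted p = 0.0276) and Atf6 (-0.39 ± 0.12, adjusted p = 0.0157). Without Control_10113 the log2 fold change was -0.47 for Hspa5 and -0.73 for Dnajb9, and without 1 of the mild mice Mild_9852, Mild_9894 and Mild_10102 it was -1.003 to -1.14 for Hspa5 and -1.06 to -1.19 for Dnajb9. The Hspa5 and Dnajb9 calls were each lost without any 1 of these 4 mice (adjusted p 0.0641 to 0.0924 and 0.0619 to 0.0941), and the Hspa5 call also with no expression filter or from the libraries of both groups alone. Xbp1 fell in advanced mice (-0.64 ± 0.25, adjusted p = 0.0439), a call lost without Control_9867 or Control_10113 or Advanced_9845 or Advanced_10104 (adjusted p 0.0695 to 0.167), with a stricter filter on low counts or with none. Between advanced and mild CDAHFD mice edgeR and DESeq2 called 0 of 10 members in whole liver nuclei (0 also at an unadjusted p under 0.05, smallest adjusted p = 0.443), where 1.88% of genes were called.

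In hepatocytes of mice on the FPC diet Atf4 and Herpud1 fell and no member was called higher. Of 10 members, 0 were higher and 2 lower in advanced against control mice, where 46.9% of genes were called, 0 higher and 1 lower in mild against control mice, where 33.1% were called, and edgeR called 0 between advanced and mild mice, where 20.2% were called and 1 member, Trib3, had an unadjusted p under 0.05. These shares lie below the backgrounds. Atf4 had 23.6, 29.9 and 27.1 normalised CPM in advanced FPC mice, against 43.3, 54.3, 49.4 and 69.6 in controls, with no overlap. The log2 fold change was -0.89 ± 0.20 (adjusted p = 0.00244). In mild mice, with 26.7, 41.3, 32.9 and 43.96, it was -0.50 ± 0.18 (adjusted p = 0.0497), a call lost without Control_6852, Control_6952 or Control_6953 or Mild_6825 or Mild_6887 (adjusted p 0.062 to 0.156) and under a stricter filter on low counts. Herpud1 had 63.7, 102 and 62.5 in advanced mice, against 116, 174, 96.2 and 188 in controls, with overlapping ranges and a log2 fold change of -0.80 ± 0.23 (adjusted p = 0.0135). That call was lost without mouse Advanced_6826 or Advanced_6904 (adjusted p = 0.0556 and 0.0593). Total-count scaling called neither Atf4 (-0.47, adjusted p = 0.0683) nor Herpud1 (-0.38, adjusted p = 0.196) in advanced mice, where the median gene was 0.41 higher.

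Trib3 in FPC hepatocytes depended on 1 mouse. It had 8.34, 31.6 and 8.91 normalised CPM in advanced mice, against 7.42, 10.99, 7.16 and 4.07 in controls. Mouse Advanced_6880 stood apart and the other 2 advanced mice lay within the control range. The log2 fold change was 1.25 ± 0.51 (adjusted p = 0.0643). DESeq2 called it (1.239, adjusted p = 0.0281), and without mouse Advanced_6826 or Advanced_6904, which leaves Advanced_6880 with 1 other advanced mouse, edgeR called it too (adjusted p = 0.0318 and 0.0434), as it did without Control_6852 (adjusted p = 0.0489). Total-count scaling gave 1.67 (adjusted p = 0.0198), and without mouse Advanced_6880 the log2 fold change was 0.34 (adjusted p = 0.57). Against mild mice, at 2.26 to 8.04, it was 1.5 ± 0.51 (adjusted p = 0.0595), a difference that DESeq2 also called (adjusted p = 0.012). Ddit3 was at 0.65 ± 0.29 in advanced FPC mice (adjusted p = 0.0845), and total-count scaling called it (1.06, adjusted p = 0.0133). Asns spanned 0.436 to 23.4 among the 4 FPC controls and 0.313 to 3.04 among mild FPC mice. Its log2 fold change in mild mice, -2.94 ± 1.16, did not pass (adjusted p = 0.077), while DESeq2 called it (adjusted p = 0.0331), as edgeR did without Control_6816 or Control_6852 or Mild_6825 (adjusted p 0.0327 to 0.0477).

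In whole liver nuclei of FPC mice 0 members were higher and 5 lower in advanced against control mice, where 59.3% of genes were called. They were Herpud1 (-0.91 ± 0.21, adjusted p = 0.00259), Atf4 (-0.84 ± 0.22, adjusted p = 0.00488), Dnajb9 (-0.54 ± 0.15, adjusted p = 0.0079), Atf6 (-0.32 ± 0.10, adjusted p = 0.0184) and Xbp1 (-0.76 ± 0.25, adjusted p = 0.0187). Herpud1 had 56.9, 75.1 and 52.1 normalised CPM in advanced mice, against 82.7, 132, 83.7 and 154 in controls, and Herpud1, Atf4 and Atf6 did not overlap the controls. The Atf6 call was lost without Control_6816 or Advanced_6880 (adjusted p = 0.0545 and 0.0802) and the Xbp1 call without Advanced_6826 (adjusted p = 0.0781) or from the libraries of both groups alone. Mild mice had 0 members higher and 2 lower than controls, where 43.2% of genes were called. These were Atf4 (-0.65 ± 0.20, adjusted p = 0.0182), lost without Control_6953 (adjusted p = 0.0577), and Herpud1 (-0.73 ± 0.19, adjusted p = 0.00901). Between advanced and mild mice 1 member, Dnajb9, was lower (-0.58 ± 0.15, adjusted p = 0.0152), where 22.3% of genes were called, and the call was lost without Advanced_6826 or Advanced_6880 (adjusted p = 0.0524 and 0.0666). Total-count scaling turned Atf6 in advanced against control mice to 0.12 (adjusted p = 0.359), below the median shift of 0.44.

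**Figure D3:**
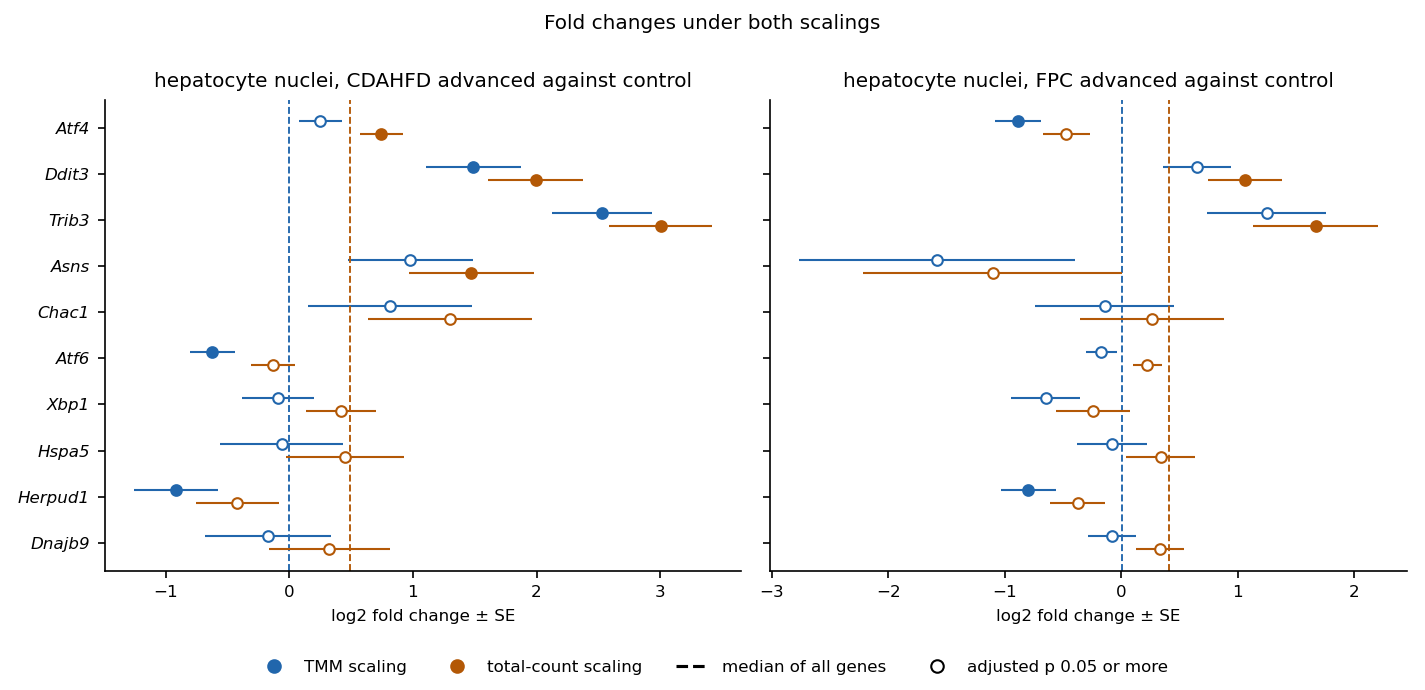
Log2 fold changes (bars are SE) of the 10 genes in hepatocyte nuclei of advanced against control mice of each diet under TMM scaling and under total-count scaling, with the median of all genes as dashed lines and open points where the adjusted p was 0.05 or more. The whole pattern moves with the median gene, which stands at 0.49 (CDAHFD) and 0.41 (FPC) under total-count scaling, and Trib3 and Ddit3 in CDAHFD mice are filled under both.

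Across the 8 comparisons of diseased with control mice, 6 results of 80 were called higher and 20 lower. Of all genes tested, 21.8% to 31.3% were higher and 11.3% to 29.2% lower in these comparisons. The share of results called lower lies within that background, and the share called higher lies below it. The same genes recur in every comparison, with shared controls and both fractions of the same mice. The 80 results are therefore not independent, and their balance is no result about the set. Total-count scaling called all 6 of the higher results again, 16 higher results in all, and 2 of the 20 lower ones. In the authors' deposited table, which covers hepatocyte nuclei, Trib3 stood at 2.56 in advanced CDAHFD mice (adjusted p = 7.70e-07), 2.16 in mild CDAHFD mice (adjusted p = 8.71e-06) and 1.244 in advanced FPC mice (adjusted p = 0.0287). The authors' deposited table gave Asns at -3.03 in mild FPC mice (adjusted p = 0.0055). Here edgeR called neither that difference nor Trib3 in advanced FPC mice. The deposited table comes from the same mice, so it adds no independent evidence. Positive values there go with higher counts in the more diseased group.

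Hepatocyte and whole liver nuclei of the same stage were then set side by side. In FPC mice edgeR called 0 of 10 members between the fractions in controls, mild and advanced mice, where 17.5%, 26.2% and 22.5% of genes were called. DESeq2 also called 0, and an unadjusted p under 0.05 was met by 0, 0 and 1 member (Dnajb9). The replicate block, run in edgeR, compares both libraries of a mouse. It called 5767, 7223 and 6421 of 14333 genes in control, mild and advanced mice. Among the members it called 4, 8 and 4 at these stages, each higher in hepatocyte nuclei. Herpud1 was among them at every stage, at 0.28 ± 0.08 in controls (adjusted p = 0.0118), 0.38 ± 0.08 in mild mice (adjusted p = 0.00111) and 0.24 ± 0.09 in advanced mice (adjusted p = 0.0416). The fraction by disease interaction of FPC mice, which asks whether the change with advanced NASH differs between the fractions, gave 0 members in edgeR with or without the block, where 3.82% of genes were called without it, and 0 in DESeq2 or at an unadjusted p under 0.05.

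In CDAHFD mice Atf4 was higher in hepatocyte than in whole liver nuclei. Without the block 1 member was higher in controls, where 31.0% of genes were called, 3 in mild mice, where 50.7% were called, and 1 in advanced mice, where 43.2% were called, and none was lower. Atf4 had 67.7, 51.3 and 41.8 normalised CPM in hepatocyte nuclei of advanced mice, against 33.9, 31.9 and 20.7 in whole liver nuclei, with no overlap and a log2 fold change of 0.90 ± 0.19 (adjusted p = 0.000757). In mild mice it was 0.80 ± 0.17 (adjusted p = 0.000437), beside Herpud1 (0.86 ± 0.33, adjusted p = 0.0349) and Xbp1 (0.82 ± 0.27, adjusted p = 0.0168). In controls Atf4 was at 0.47 ± 0.17 (adjusted p = 0.0378), a call lost without any 1 of the 4 mice (adjusted p 0.0699 to 0.112) and under RLE scaling, total-count scaling, DESeq2 or the libraries of both groups alone. The Herpud1 call in mild mice was lost without any 1 of the 4 mice (adjusted p 0.0815 to 0.0948) or under total-count scaling, and the Xbp1 call without mouse Mild_9852 or Mild_9853 (adjusted p = 0.0671 and 0.052). The replicate block called 2 members higher in controls, 7 in mild and 5 in advanced mice, and 3 in controls without mice Control_9862 and Control_9867, namely Atf4 (0.41 ± 0.12, adjusted p = 0.0217), Ddit3 (0.44 ± 0.14, adjusted p = 0.03004) and Herpud1 (0.47 ± 0.09, adjusted p = 0.00236). How many of all genes the block called at these stages is not reported here, so the counts are no result about the set.

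The interaction of fraction and advanced CDAHFD disease gave 0 members in edgeR, where 10.2% of genes were called, and 0 in DESeq2 or at an unadjusted p under 0.05. With the replicate block it gave Atf4 (0.44 ± 0.13, adjusted p = 0.03102), and without mice Control_9862 and Control_9867 it gave Xbp1 (0.49 ± 0.12, adjusted p = 0.0171) and Atf6 (-0.50 ± 0.15, adjusted p = 0.0341) in its place. Of all genes, 2572 and 2860 were called in these fits, in that order. Trib3, the member with the largest change in either fraction, had an interaction of -0.06 ± 0.59 without the block (adjusted p = 0.972). That fit does not use the pairing of both libraries of a mouse. In that fit the Trib3 changes of hepatocyte and whole liver nuclei could differ by more than 1 log2 unit either way and pass unseen. The block did not call Trib3 either.

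The difference between the diets was tested in hepatocyte nuclei by subtracting the change on the FPC diet from that on the CDAHFD. In advanced mice 1 member was higher and 0 lower, where 11.9% of genes were called, and in mild mice 2 were higher and 0 lower, where 12.2% were called. Atf4 differed by 1.20 ± 0.28 log2 units in advanced mice (adjusted p = 0.0104), with 41.8 to 67.7 normalised CPM in advanced CDAHFD mice and 23.6 to 29.9 in advanced FPC mice, and control means of 45.5 and 54.2. The call held under 19 alternatives, from 0.98 to 1.36, total-count scaling included. In mild mice Atf4 differed by 0.80 ± 0.26 (adjusted p = 0.0478), a call lost without any 1 of 11 of the 16 mice (adjusted p 0.059 to 0.0982) and with no expression filter. Trib3 differed by 2.49 ± 0.68 in mild mice (adjusted p = 0.0243), lost only without FPC Control_6852 (adjusted p = 0.0511), and by 1.34 ± 0.71 in advanced mice (adjusted p = 0.22), which was called without FPC mouse Advanced_6880 (adjusted p = 0.0302). Ddit3 differed by 0.90 ± 0.53 in advanced mice (adjusted p = 0.265), so its rise on the CDAHFD alone is not shown to differ from its change on the FPC diet.

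The other genes of these pathways were described through 5 lists of 97 genes, all measured. The lists were chosen with earlier results of these data known, so setting them beside all genes is a description and no test. A list of 31 genes that ATF4 and CHOP are known to act on was called higher more often than all genes in diseased hepatocytes. It leaves out the members and the aminoacyl-tRNA synthetases, which are given apart. In CDAHFD mice 23 rose and 3 fell of 30 tested in advanced against control mice, with a median log2 fold change of 1.79, beside 30.3% of all genes higher and 29.2% lower. In mild CDAHFD mice 22 rose and 2 fell of 30, in advanced FPC mice 16 rose and 2 fell of 31, and in mild FPC mice 17 rose and 1 fell of 31, beside 29.6%, 26.5% and 21.8% of all genes higher. Total-count scaling gave 24, 23, 22 and 20 higher. Nupr1, a stress-induced transcription regulator, averaged 31.7 ± 14.5 normalised CPM in advanced CDAHFD mice and 0.619 ± 0.437 in controls (5.68 ± 0.55, adjusted p = 8.204e-06). Slc7a1, a transporter of cationic amino acids, averaged 20.6 ± 2.58 in advanced CDAHFD mice and 0.877 ± 0.388 in controls (4.54 ± 0.31, adjusted p = 5.63e-07). In advanced FPC mice Fgf21, a hormone of the fasting liver, averaged 12.8 ± 7.05, against 0.466 ± 0.391 in controls (4.91 ± 0.68, adjusted p = 7.72e-05). The exceptions included Cth, cystathionine gamma-lyase, which averaged 52.7 ± 6.72 in advanced CDAHFD mice and 485 ± 648 in controls (-3.19 ± 0.91, adjusted p = 0.0114), and 126 ± 64.0 in advanced FPC mice and 516 ± 332 in controls (-1.91 ± 0.43, adjusted p = 0.002998). Recruited macrophage markers moved in the same comparisons, 9 of 9 higher in advanced mice of both diets. Cholangiocyte markers did so too, with 6 of 7 higher in advanced CDAHFD mice and 7 of 7 in advanced FPC mice. Of 10 stellate cell markers 5 were higher and 1 lower in advanced CDAHFD mice, and 7 higher in advanced FPC mice. The share of all genes higher was 30.3% and 26.5%. In hepatocyte nuclei stellate cell markers summed to 161 to 202 normalised CPM in advanced CDAHFD mice, within the control range of 101 to 229. On the FPC diet they summed to 134 to 187 in advanced mice, against 75.1 to 131 in controls. Cholangiocyte markers summed to 299 to 463 normalised CPM in hepatocyte nuclei of advanced CDAHFD mice, against 111 to 173 in controls, and to 919 to 1393 in advanced FPC mice, against 134 to 164 in controls. In whole liver nuclei cholangiocyte markers summed to 391 to 518 in advanced CDAHFD mice and to 755 to 1024 in advanced FPC mice. Which nuclei the marker transcripts came from, and their part in this list, was not tested.

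No ER chaperone or folding enzyme (19 genes) was called higher on the CDAHFD. In hepatocyte nuclei 0 rose and 6 fell in advanced mice and 0 rose and 9 fell in mild mice against controls, with median log2 fold changes of -0.78 and -0.91. Of all genes 29.2% and 26.7% were lower in these comparisons, so the advanced count lies near the background. Total-count scaling gave 1 higher and 2 lower, and 0 higher and 5 lower. These counts were not repeated with a mouse left out, so the part of Control_10113, the highest control for Hspa5, was not tested. Ero1lb, an oxidase of disulfide formation, averaged 37.5 ± 11.2 normalised CPM in advanced mice and 192 ± 159 in controls (-2.34 ± 0.52, adjusted p = 0.00286). Erp44, which retains folding enzymes in the ER, averaged 66.9 ± 17.0 in advanced mice and 182 ± 76.1 in controls (-1.42 ± 0.27, adjusted p = 0.000777). In FPC hepatocytes 0 rose and 4 fell in advanced mice, and 2 rose and 0 fell in mild mice, beside 20.4% of all genes lower in advanced mice and 21.8% higher in mild mice, which is no result about the list. The degradation and translocation list gave 2 higher and 8 lower of 19 in advanced CDAHFD mice and 0 higher and 4 lower of 18 in advanced FPC mice, beside 30.3% of all genes higher and 29.2% lower on the CDAHFD and 26.5% higher and 20.4% lower on the FPC diet. The FPC count of lower genes lies near the background. Derl2, a component of ER-associated degradation, as Herpud1 is, averaged 22.9 ± 4.47 in advanced CDAHFD mice and 99.5 ± 24.99 in controls (-2.10 ± 0.19, adjusted p = 4.13e-06), and 41.0 ± 8.80 in advanced FPC mice and 87.8 ± 3.996 in controls (-0.98 ± 0.14, adjusted p = 0.000105).

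Few sensors and regulators (16 genes) were called. In advanced CDAHFD hepatocytes 3 rose and 1 fell, and in advanced FPC hepatocytes 1 rose and 4 fell, beside the same shares of all genes (30.3% higher and 29.2% lower, and 26.5% higher and 20.4% lower). The FPC count of lower genes again lies near the background. Ppp1r15a, the phosphatase subunit that reverses eIF2alpha phosphorylation and is induced by CHOP, averaged 25.3 ± 1.82 normalised CPM in advanced CDAHFD mice and 10.7 ± 3.91 in controls (1.27 ± 0.25, adjusted p = 0.00096). Eif2ak3, which encodes PERK, averaged 108 ± 5.92 in advanced FPC mice and 59.25 ± 7.03 in controls (0.99 ± 0.18, adjusted p = 0.000538). Total-count scaling gave 10 higher and 0 lower, and 8 higher and 2 lower, so the balance of this list rests on the scale. Aminoacyl-tRNA synthetases (12 genes), which charge transfer RNAs and include ATF4 targets, gave 2 higher and 1 lower in advanced CDAHFD mice, and 1 higher and 5 lower in advanced FPC mice, beside those same shares. Under total-count scaling they gave 8 higher and 0 lower, and 6 higher and 0 lower. No test of the difference between the diets was made for a list.

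**Figure D4:**
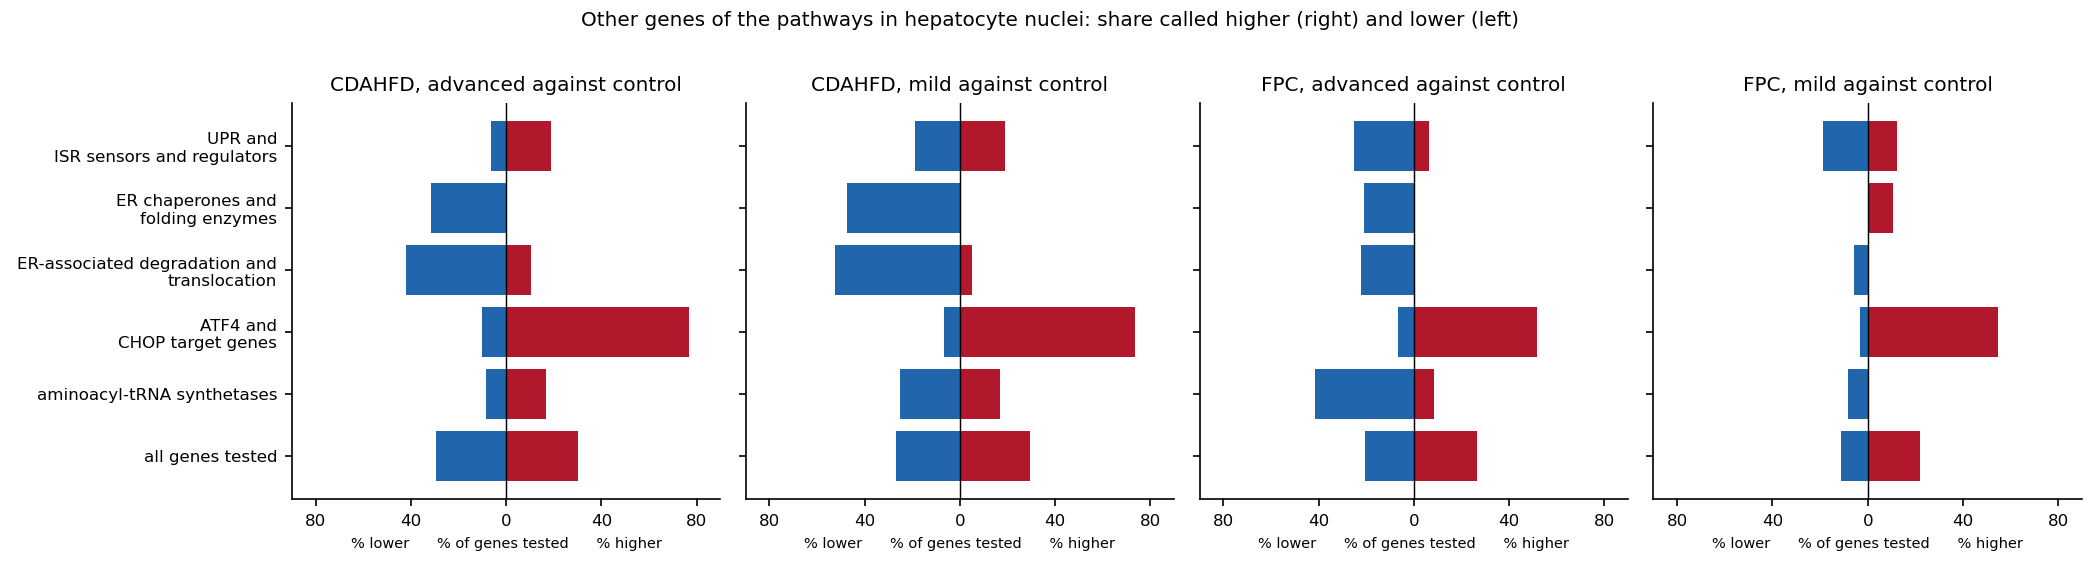
Percent of the genes tested in each of 5 pathway lists, and of all genes tested (lowest bar), that edgeR called higher (right) or lower (left) in hepatocyte nuclei of advanced and mild mice against controls. Genes acted on by ATF4 and CHOP were called higher 23 of 30 times in advanced CDAHFD mice, while all genes were at 30.3% higher and 29.2% lower. The lists were chosen with earlier results of these data known.

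Mice of a group differed widely in these genes, and both libraries of a mouse usually showed it. CDAHFD mouse Control_10113 had 207 normalised CPM of Hspa5 in hepatocyte nuclei and 165 in whole liver nuclei, where the other 3 controls had 40.9 to 81.3 and 35.1 to 61.3. The same mouse was highest among the controls for Dnajb9, at 33.8 and 29.1. Over the 22 hepatocyte libraries, deviations of Hspa5 and Dnajb9 from their group means correlated at r = 0.82 (levels at r = 0.81). Deviations of Atf6 and Dnajb9 correlated at 0.74, those of Atf4 and Hspa5 at 0.71 and those of Atf4 and Ddit3 at 0.69. Those of Ddit3 and Hspa5 followed at 0.665. Trib3 and Ddit3 levels correlated at 0.82 and their deviations at 0.45. These correlations are on log2(CPM + 0.5) scaled to library totals, and the points share library, diet and stage. Asns in FPC controls had 0.436, 0.977, 10.8 and 23.4 in hepatocyte nuclei and 0.237, 0.552, 8.22 and 18.7 in whole liver nuclei of the same mice. The libraries labelled Control_9862 and Control_9867 were crosswise for Asns, at 1.36 and 8.37 in hepatocyte nuclei and 6.72 and 0.985 in whole liver nuclei.

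**Figure D5:**
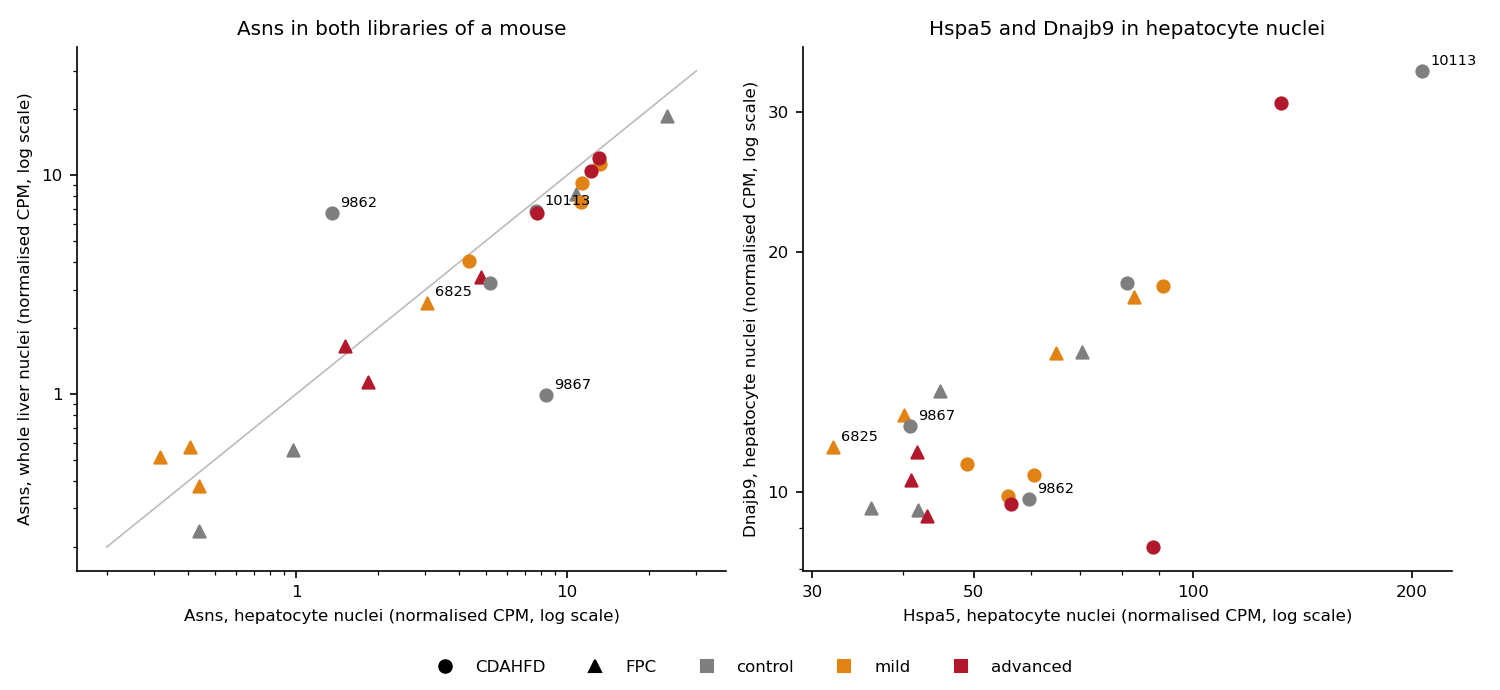
Left, Asns of each mouse in hepatocyte nuclei (x) and whole liver nuclei (y), with the line of equal values; right, Hspa5 (x) and Dnajb9 (y) in hepatocyte nuclei, all in normalised CPM on log scales, each point 1 of 22 mice. Mice Control_9862 and Control_9867 lie off the line (1.36 with 6.72, and 8.37 with 0.985), and mouse Control_10113 has the highest Hspa5 (207) and Dnajb9 (33.8).

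The genes with the most similar pattern to each member over the 22 hepatocyte libraries were taken by Pearson's r among 13632 other genes. These r are the highest found, on levels scaled to library totals and not on deviations from group means. They include differences between diets and stages that many genes share, so they do not single out partners of a member. Hspa5 was followed by the ER genes Manf (r = 0.94) and Calr (r = 0.935), and Dnajb9 by Calr (r = 0.83) and Mtf1 (r = 0.83). Trib3 had Dmwd (r = 0.96) and Fth1, the ferritin heavy chain (r = 0.96), and Ddit3 had Gabarap (r = 0.95) and Casc3 (r = 0.94). Atf4 had Eif4b (r = 0.91), Xbp1 had Madd (r = 0.88) and Tusc2 (r = 0.87), and Chac1 had Otulin (r = 0.85) and Rnaseh2a (r = 0.85). Atf6 had Vti1a (r = 0.85) and Wars2 (r = 0.80), Herpud1 had Slc37a4 (r = 0.82) and Txn2 (r = 0.78), and Asns had Dis3l2 (r = 0.75) and Jcad (r = 0.75), the weakest of the 10 genes.

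The order of group means differed between members. Trib3 and Ddit3 had their 4 highest means in the 4 groups of diseased CDAHFD mice, in both fractions, while Atf6 and Herpud1 had their 2 highest in control groups. For Trib3 the means were 43.8 and 34.1 normalised CPM in hepatocyte nuclei of advanced and mild CDAHFD mice, 29.1 and 19.3 in whole liver nuclei of the same stages, and 4.31 to 16.3 in the other 8 groups. In every gene neighbouring groups in the order overlapped in their ranges.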

How the data were processed

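RNA of hepatocyte nuclei and of whole liver nuclei was prepared without selection for polyadenylated RNA and sequenced, per the labels' protocols. The submitters' processing notes name STAR 2.4.2a, DESeq2 1.24.0 and mm10. The authors deposited raw counts per gene, with totals of 12.1 to 33.1 M a library, and a table of log2 fold changes with adjusted p-values for hepatocyte nuclei. In 94.7% of genes the counted length equals the whole gene, introns included. Of 20105 identifiers, 13147 were named by the authors' deposited table and 6879 by RefSeq, and 79 had no name.

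Groups were taken from the sample titles. Counts were tested with edgeR 4.0.16 (R 4.3.3) by its quasi-likelihood test after TMM scaling and a filter at a minimum count of 10, and p-values were adjusted by Benjamini-Hochberg over every gene tested (threshold 0.05). Comparisons of stages were fitted on the 11 libraries of a fraction and diet, comparisons of fractions on the 22 libraries of a diet, and diet differences on the 22 hepatocyte libraries. SE was obtained from the ratio of each log2 fold change to the root of its F statistic. The procedure was run on simulated data for 1 comparison, advanced against control FPC hepatocyte nuclei. Few genes changed there, as many up as down, so the simulation does not test the scaling. Library pairs of a mouse come from the mouse number in the titles, and 20 of 22 mice had a correlation of deviations over 0.1, so the replicate block was run as an alternative. Replicates of a group differed beyond counting noise (chi-square of 19.96 to 271.73 for each degree of freedom). The other alternatives were DESeq2 1.42.0, RLE scaling, a minimum count of 30, no expression filter, the libraries of both groups alone and each mouse left out. Total-count scaling, and the block without mice Control_9862 and Control_9867, were added after seeing the data. All 10 members are named in full. Pathway genes are named from up to 3 called genes per list and direction with the largest changes and more than 3 counts in each group, and for each member the 2 genes of highest Pearson's r on log2(CPM + 0.5), of which 1 is not reported here. The members and lists were chosen with earlier results of these data known.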

Additional observations from a re-analysis of the deposited data

Results flagged for a closer look

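Among 80 sets of 4 mice, each 1 gene in 1 group, 5 held a mouse far from the others, where chance flags about 1 in 20. Asns in FPC mouse Mild_6825 was 3.042 normalised CPM in hepatocyte nuclei, against 0.313 to 0.437 in the other mild mice, and 2.619 in whole liver nuclei, against 0.380 to 0.571. Chac1 in hepatocyte nuclei of CDAHFD mouse Mild_10102 was 0.8496, against 3.32 to 3.70 in the other mild mice. Dnajb9 was 18.16 in hepatocyte nuclei of CDAHFD mouse Mild_9853, against 9.87 to 10.85 in the others, and 9.694 in whole liver nuclei of FPC mouse Mild_6887, against 11.4 to 11.6 in the others.

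The change with disease differed between the diets by the edgeR test of the difference (CDAHFD minus FPC, log2 units) in 3 cases in hepatocyte nuclei. Atf4 differed by 1.201 in advanced mice (adjusted p = 0.0104) and by 0.7993 in mild mice (adjusted p = 0.0478). Trib3 differed by 2.491 in mild mice (adjusted p = 0.0243).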

How the results depend on the processing

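Each member in each of the 22 comparisons was recomputed under every alternative. Leaving out a library or mouse kept the call and direction in 1452 of 1540 values, RLE scaling in 217 of 220, a minimum count of 30 in 217, no expression filter in 217, DESeq2 in 210, total-count scaling in 187, and the libraries of both groups alone in 164 of 180. The replicate block kept 54 of 80 and gained 26 calls, in comparisons of the fractions and, for Atf4 on the CDAHFD, in the interaction with disease. Only Atf6 in whole liver nuclei of advanced against control FPC mice reversed, to 0.12 under total-count scaling. The cause of the moves was not tested. Precision is limited by 3 or 4 mice a group and, for Chac1, by few counts. For Asns it is limited by a wide spread between mice, and by few counts in some libraries.

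Members called moved in these cases. In hepatocyte nuclei of mild against control FPC mice the count of 1 became 2 under RLE scaling, 0 under the stricter filter, 3 under DESeq2 and 2 with the libraries of both groups alone. Between advanced and mild FPC mice 0 became 1 under total-count scaling and 1 under DESeq2. In whole liver nuclei of FPC mice total-count scaling gave 1 in place of 5 for advanced against control (Ddit3, higher, with all 5 lower calls lost), 0 in place of 2 for mild against control and 0 in place of 1 for advanced against mild, where DESeq2 gave 2. In whole liver nuclei of mild against control CDAHFD mice total-count scaling gave 3 in place of 5 (Trib3, Ddit3 and Herpud1). For the mild diet difference no expression filter gave 1 in place of 2.

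Between the fractions, the libraries of both groups alone gave 1 member in place of 0 in mild FPC mice, 8 in place of 3 in mild CDAHFD mice and 4 in place of 1 in advanced CDAHFD mice, where DESeq2 gave 2. In CDAHFD controls RLE scaling, total-count scaling, DESeq2 and the libraries of both groups alone each gave 0 in place of 1, and 2772, 2656 and 2050 genes under RLE, total counts and both groups alone, in place of 4444. The replicate block, the paired fit, gave 4, 8 and 4 members and 5767, 7223 and 6421 genes in FPC control, mild and advanced mice, in place of 0 members and 2512, 3759 and 3226 genes. It gave 2, 7 and 5 members in CDAHFD control, mild and advanced mice, and 3 in controls without mice Control_9862 and Control_9867. For the interaction it gave 1355 genes in place of 547 on the FPC diet, and 1 member and 2572 genes on the CDAHFD, or 2 members and 2860 genes without these mice, in place of 0 members and 1466 genes. Genes called between advanced and mild CDAHFD mice numbered 375 in hepatocyte nuclei, against 634 under total-count scaling, 1119 under DESeq2 and 745 with both groups alone, and 265 in whole liver nuclei, against 707 under DESeq2 and 483 with both groups alone.

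With 1 mouse left out, members called ranged in hepatocyte nuclei from 0 to 3 for mild against control FPC mice and from 0 to 1 for advanced against mild FPC mice. In whole liver nuclei they ranged from 2 to 4 for mild against control FPC mice, from 0 to 1 for advanced against mild FPC mice (1956 genes without mouse Advanced_6880, up to 3729) and from 3 to 6 for mild against control CDAHFD mice. Genes called between advanced and mild CDAHFD mice ranged from 60 without mouse Advanced_9896 to 309 in hepatocyte nuclei, and from 66 without mouse Advanced_9896 to 241 in whole liver nuclei. Between fractions the members ranged from 0 to 0 in CDAHFD controls and from 1 to 2 in mild CDAHFD mice, and the CDAHFD interaction from 869 to 1343 genes. The diet difference ranged from 1 to 2 members and 927 to 2045 genes in advanced mice, and from 1 to 3 members and 889 to 2111 genes in mild mice.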
